A study of Mus musculus with 28 samples.

Results

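Peroxiredoxins, the thioredoxins that reduce them and glutathione peroxidase 1 were followed over all 6 groups of an array study of dendritic cells, which take up antigen and present it to T cells, from mouse spleen. The 9 genes named were Prdx1, Prdx2, Prdx3, Prdx4, Prdx5, Prdx6, Txn1, Txn2 and Gpx1, and each was read from a probe set that carries exactly 1 gene symbol, the one with the highest mean over all arrays where there were several. Of these, 7 had such a probe set among the 19938 genes that did, and the same 7 were among the 10452 genes tested. The expression of Prdx5 and Prdx6 was not analysed here. The study asked how oxidative stress affects the expression profile of these cells.

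There were 28 arrays of cells from mice aged 3 months, wild type (C57BL6/J) or knocked out for GP91 Phox, which is NOX2, the catalytic subunit of the phagocyte oxidase that makes superoxide. The 21 wild-type arrays divide into 7 given vehicle, 4 given angiotensin II (Ang II), a blood pressure-raising peptide, and 10 given Ang II with a co-treatment. The co-treatment was 2-hydroxybenzylamine (2-HOBA) on 4 arrays, which traps reactive products of lipid oxidation. On the other 6 it was the vasodilator hydralazine together with the diuretic hydrochlorothiazide (Hyd/HCTZ). The 7 knockout arrays divide into 3 given vehicle and 4 given Ang II. Both co-treatments were given with Ang II, so neither has a group without it. How the knockout was made is not in the labels, and dose, duration, sorting gate and whether mice or isolated cells were treated are not given or not settled in the sources used here. The labels call the arrays biological replicates without naming the animals, so p-values measure the spread between these arrays.

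Peroxiredoxins remove hydrogen peroxide with a reactive cysteine that is oxidised in the act and is then reduced by thioredoxin, which is reduced in turn by thioredoxin reductase with NADPH. Prdx1 and Prdx2 act in the cytosol with Txn1, Prdx3 acts in mitochondria with Txn2, and Prdx4 lies in the endoplasmic reticulum, where it couples peroxide to the oxidative folding of proteins. Gpx1 is a selenium-containing enzyme that removes peroxide with glutathione in place of thioredoxin. Several of these genes, Prdx1 and Txn1 among them, are known targets of Nrf2, a transcription factor that binds antioxidant response elements. Prdx2 is also among the most abundant proteins of red blood cells.

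On the probe sets used, Prdx1 and Prdx4 differed most with Hyd/HCTZ in the results that follow. A second Prdx2 probe set, not used for the level of that gene, differed by 1.40. The 250 bases upstream of the annotated start are shown for Prdx1 and Prdx4, and for Txn1, the thioredoxin of the cytosol. They come from RefSeq on GRCm38.p6 and lie at chr4:116685349-116685598 on the plus strand, chrX:155338461-155338710 on the minus strand and chr4:57956412-57956661 on the minus strand, each printed 5′ to 3′. Capitals mark matches, on either strand, to the antioxidant response element core (TGACNNNGC), the AP-1 site (TGANTCA) or the NF-κB site (GGGANNNNCC).
Prdx1: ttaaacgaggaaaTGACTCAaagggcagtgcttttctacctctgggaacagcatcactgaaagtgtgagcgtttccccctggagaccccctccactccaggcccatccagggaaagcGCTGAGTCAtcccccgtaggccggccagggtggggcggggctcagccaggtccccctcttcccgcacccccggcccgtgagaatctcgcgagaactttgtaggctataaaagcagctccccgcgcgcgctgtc
Prdx4: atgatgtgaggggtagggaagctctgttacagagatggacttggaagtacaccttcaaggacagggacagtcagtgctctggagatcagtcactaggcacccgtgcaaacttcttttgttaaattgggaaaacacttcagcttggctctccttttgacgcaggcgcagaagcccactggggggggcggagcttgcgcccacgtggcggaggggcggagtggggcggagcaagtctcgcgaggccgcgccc
Txn1: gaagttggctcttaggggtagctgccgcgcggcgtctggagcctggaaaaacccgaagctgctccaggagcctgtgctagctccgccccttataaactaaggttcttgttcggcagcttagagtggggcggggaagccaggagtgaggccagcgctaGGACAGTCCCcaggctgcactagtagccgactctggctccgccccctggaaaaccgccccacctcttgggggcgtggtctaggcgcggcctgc

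The matches were counted in windows of 300 bases, 250 before and 50 after the start, in which 8 of the 9 genes had an entry, Prdx5 included and Prdx6 not. The antioxidant response element core was in 12.4% of all 32851 such windows and in 1 of the 8, Prdx1, as TGACTCAGC on the minus strand with its first base at -133. The AP-1 site was in 7.81% of all windows and in 1 of the 8, again Prdx1, which held 2 matches that start at -237 and -131. The second of these overlaps the antioxidant response element match, so the capitals there form 1 run. The NF-κB site was in 20.7% of all windows and in 3 of the 8, which were Prdx3, Txn1 and Gpx1, and the Txn1 match starts at -93. Prdx4 held none of the 3 motifs in this window. These are matches of letters and were not set against any measurement of binding.

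The values are log2 signals on the RMA scale, on which a difference of 1 is 2-fold, and levels are compared between arrays for 1 gene, never between genes. Cybb, which encodes NOX2, lay at 6.41 to 7.18 on the 7 knockout arrays while 20 wild-type arrays had it at 8.35 to 9.75. The array labelled wild-type vehicle replicate 2 went against its label, with Cybb at 6.34. Its interquartile range over all probe sets was 1.92, where group means ran from 2.53 to 3.26. The arrays were cut into 3 sets at gaps along the first principal component of control probe sets without a gene symbol. The number of sets was fixed by the method, with at least 3 arrays in each. Sets 1 and 2 were parted between scores of -7.48 and -2.47, and sets 2 and 3 between 7.31 and 19.38. Inside set 1 the array labelled wild-type vehicle replicate 2 lay apart, at -25.95, with the next at -14.39. In set 1 were all 7 knockout arrays with replicates 1 to 3 of wild-type vehicle and 1 and 2 of wild-type Ang II. In set 2 were the 4 arrays with 2-HOBA, replicates 4 to 7 of wild-type vehicle and both remaining ones of wild-type Ang II. Set 3 held the 6 arrays with Hyd/HCTZ and no others, so that treatment and that set cannot be told apart. Dendritic cell markers were present on all arrays, with Flt3, a growth factor receptor of the lineage, at 7.15 to 9.45 and Itgax, which encodes CD11c, at 7.01 to 9.68.

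As deposited, all 7 measured genes had their highest group mean with Hyd/HCTZ. Means of the other 5 groups ran from 10.22 to 10.41 for Gpx1 and from 4.35 to 5.21 for Prdx4. Asked whether a gene differed anywhere among the 6 groups, limma's moderated F test called 5578 of 10452 genes (53.4%) and 5 of the 7, namely Prdx1, Prdx3, Prdx4, Txn1 and Txn2. The adjusted p was 0.000118 for Prdx1 and 7.34e-05 for Prdx4, and it was 0.0797 for Prdx2 and 0.0717 for Gpx1. Without the Hyd/HCTZ group, the same test over the other 5 groups called 22 genes (0.21%) and 0 of the 7, whose adjusted p ran from 0.779 to 0.997. At an unadjusted p under 0.05 it also gave 0 of the 7, the smallest p being 0.208 for Prdx4.

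Prdx1, the main cytosolic peroxiredoxin of most cells, lay on the 6 Hyd/HCTZ arrays at 10.02, 10.08, 10.12, 10.18, 10.23 and 10.25 (10.15 ± 0.09, SD, n = 6). On the 4 wild-type Ang II arrays it lay at 8.19, 8.45, 9.19 and 9.46 (8.82 ± 0.60, SD, n = 4). These ranges did not overlap, and no other array of the study reached the lowest Hyd/HCTZ array, the nearest being a wild-type vehicle array at 9.67. With 2-HOBA Prdx1 was at 9.06, 9.13, 9.20 and 9.45, and on wild-type vehicle arrays it ran from 7.96 through a median of 9.19 to 9.67. Knockout arrays with vehicle gave 8.11, 8.83 and 9.38, and knockout arrays with Ang II gave 8.14, 8.43, 8.65 and 8.93, all within the range of the wild-type vehicle group. Ordered by mean the groups ran from Hyd/HCTZ (10.15) through 2-HOBA (9.21), wild-type vehicle (8.90), wild-type Ang II (8.82) and knockout vehicle (8.77) to knockout Ang II (8.54), and all neighbours below the first overlapped.

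Prdx2, the second cytosolic peroxiredoxin, was at 7.98, 8.32, 8.47, 8.66, 8.79 and 8.94 with Hyd/HCTZ (8.53 ± 0.34, SD, n = 6). With Ang II alone it was at 7.02, 7.24, 7.81 and 8.62 (7.67 ± 0.72, SD, n = 4), so that 1 Ang II array lay inside the Hyd/HCTZ range. On wild-type vehicle arrays it ran from 6.55 through a median of 7.86 to 8.23. With 2-HOBA it was at 7.10, 7.30, 7.51 and 7.53, the lowest group mean (7.36 ± 0.20, SD, n = 4). Knockout vehicle arrays gave 7.32, 7.45 and 8.25. Knockout Ang II arrays gave 6.62, 7.31, 7.40 and 9.38, and the last of these, replicate 4, was the highest Prdx2 value of the study. All these values are from the brighter of its probe sets, and the other is described below.

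Prdx3, the mitochondrial peroxiredoxin, ran from 6.25 to 6.76 with Hyd/HCTZ (6.53 ± 0.20, SD, n = 6). It was at 5.08, 5.35, 6.18 and 6.26 with Ang II (5.72 ± 0.59, SD, n = 4), where the highest array exceeded the lowest Hyd/HCTZ array by less than the spread of either group. On wild-type vehicle arrays it ran from 4.51 through a median of 5.95 to 6.34, and with 2-HOBA it was at 5.37, 5.47, 5.89 and 6.25. Knockout cells had it at 4.94, 4.95 and 5.66 with vehicle and at 4.55, 5.47, 5.51 and 6.12 with Ang II. Knockout vehicle was the lowest group and overlapped the next.

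Prdx4, the peroxiredoxin of the endoplasmic reticulum, ran from 6.02 through a median of 6.42 to 6.70 with Hyd/HCTZ (6.41 ± 0.24, SD, n = 6). No other array of the study reached this range. With Ang II it was at 4.51, 4.89, 5.44 and 5.51 (5.09 ± 0.48, SD, n = 4), and with 2-HOBA at 4.63, 5.29, 5.32 and 5.60. Wild-type vehicle arrays ran from 3.74 through 5.44 to 5.54, with 4 arrays within 5.44 to 5.54 and the other 3 at 3.74, 4.09 and 5.18. Knockout arrays had Prdx4 at 3.64, 4.30 and 5.10 with vehicle and at 4.74, 4.86, 5.06 and 5.17 with Ang II. Much of this lies near 5, the level a gene had to pass on 3 arrays to be tested, and dim probe sets are compressed on the RMA scale.

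Txn1, the cytosolic thioredoxin, ran from 10.52 to 10.93 with Hyd/HCTZ (10.80 ± 0.15, SD, n = 6) and was at 9.60, 10.05, 10.07 and 10.18 with Ang II (9.97 ± 0.26, SD, n = 4). These groups did not overlap, and 1 of the other 22 arrays, knockout Ang II replicate 4 at 10.54, reached the Hyd/HCTZ range. On wild-type vehicle arrays Txn1 ran from 9.28 through 10.32 to 10.50, and with 2-HOBA it was at 9.89, 9.94, 10.33 and 10.40. Knockout arrays had Txn1 at 9.31, 9.70 and 10.25 with vehicle and at 9.53, 9.56, 9.61 and 10.54 with Ang II. These groups had its lowest means, 9.75 with vehicle and 9.81 with Ang II, and overlapped the wild-type Ang II group. Txn2, the mitochondrial thioredoxin, ran from 7.60 to 8.10 with Hyd/HCTZ (7.89 ± 0.19, SD, n = 6). With Ang II it was at 7.26, 7.32, 7.35 and 7.43 (7.34 ± 0.07, SD, n = 4), below every Hyd/HCTZ array. On wild-type vehicle arrays Txn2 ran from 6.70 through 7.48 to 7.73, and with 2-HOBA from 7.16 to 7.35. Knockout arrays had it at 7.21, 7.73 and 7.76 with vehicle and at 7.32, 7.44, 7.57 and 7.69 with Ang II. Of the 22 arrays without Hyd/HCTZ 4 reached the Hyd/HCTZ range for Txn2. They were wild-type vehicle replicate 5 (7.73), knockout vehicle replicates 1 (7.73) and 3 (7.76) and knockout Ang II replicate 2 (7.69).

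Gpx1, the glutathione-dependent enzyme, was within 10.84 to 11.13 on the Hyd/HCTZ arrays (11.02 ± 0.13, SD, n = 6). With Ang II it was at 9.69, 9.97, 10.71 and 11.03 (10.35 ± 0.63, SD, n = 4), so the groups overlapped. It ran from 9.49 through 10.57 to 10.99 on wild-type vehicle arrays and was at 9.74, 10.20, 10.40 and 10.54 with 2-HOBA. Knockout arrays had it at 9.89, 10.24 and 10.61 with vehicle and at 9.85, 10.43, 10.43 and 10.93 with Ang II. The group means outside Hyd/HCTZ were 10.22 to 10.41, a smaller gap than the SD within any of them.

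**Figure D1:**
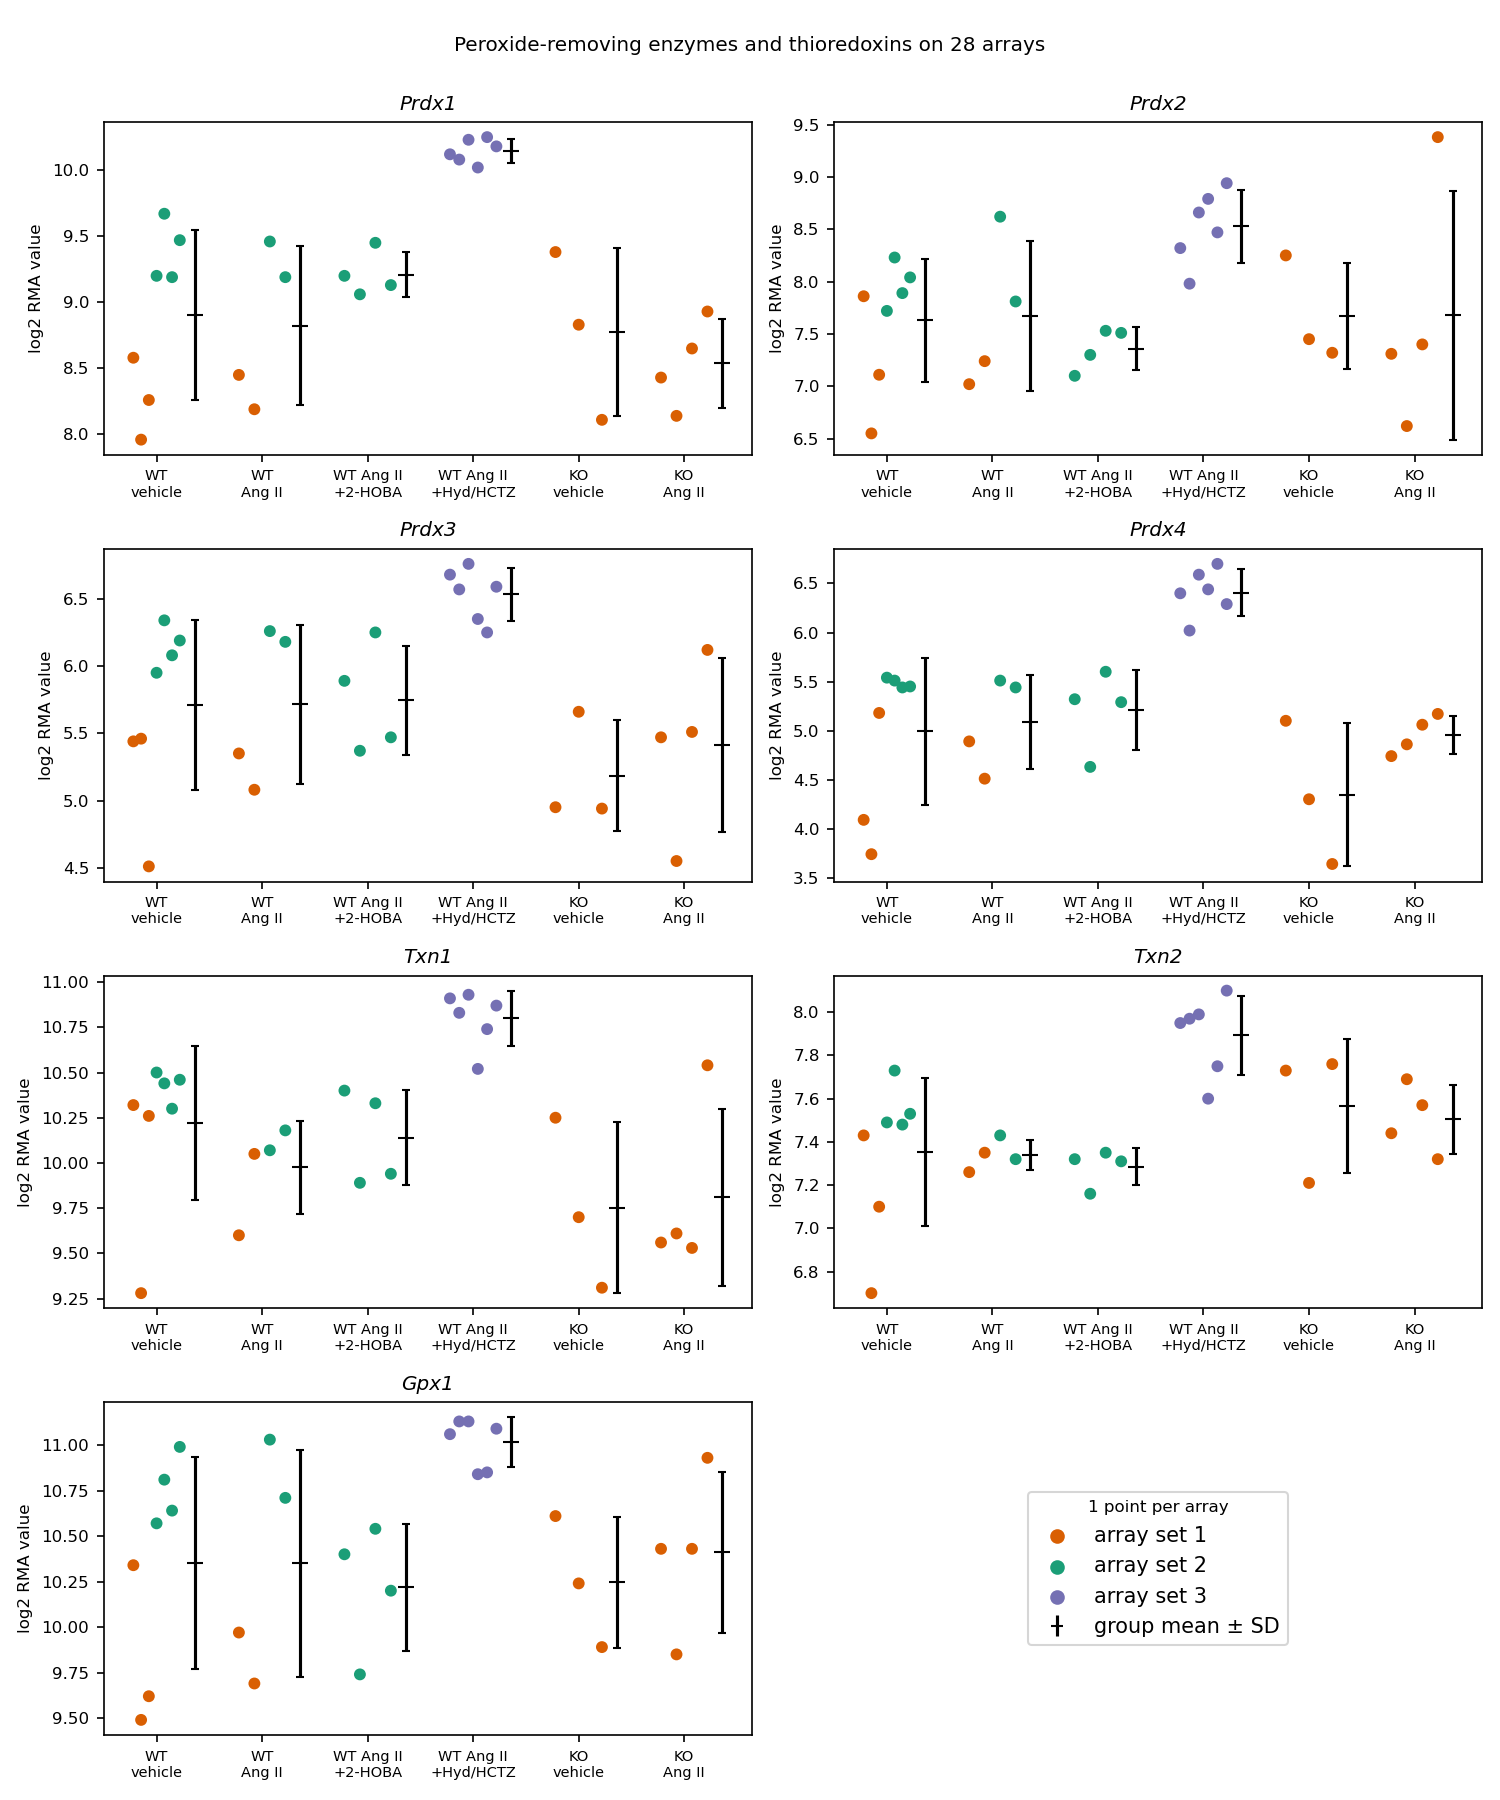
Log2 RMA value of each of the 7 measured genes on 28 arrays, 1 point per array by group (WT, wild type, KO, NOX2 knockout), coloured by array set, with the group mean and SD beside the points. The 6 Hyd/HCTZ arrays of Prdx1 (10.02 to 10.25) and Prdx4 (6.02 to 6.70) lie above all other arrays, and within wild-type vehicle the set 1 points lie mostly below the set 2 points.

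The effect of adding Hyd/HCTZ was read against Ang II alone in wild-type cells. As deposited, all 7 genes were higher with Hyd/HCTZ, by 0.55 to 1.32 on the log2 scale, and 6 of the 7 were called, in a comparison that called 52.7% of all tested genes and 40.8% as higher. Prdx1 rose by 1.32 (SE 0.28, 2.5-fold, adjusted p = 0.000287) and Prdx4 by 1.32 (SE 0.31, adjusted p = 0.00081). Txn1 rose by 0.83 (SE 0.22, adjusted p = 0.00277), Prdx3 by 0.82 (SE 0.30, adjusted p = 0.0245), Gpx1 by 0.67 (SE 0.27, adjusted p = 0.0394) and Txn2 by 0.55 (SE 0.16, adjusted p = 0.00608), though Txn2 did not keep this direction after quantile normalization (-0.02). Prdx2 had a difference of 0.85 (SE 0.37, adjusted p = 0.0546) and was not called on the probe set used. The median of the 7 was 0.83 and that of all tested genes was 0.32. The groups did not overlap for 4 of the 7, namely Prdx1, Prdx4, Txn1 and Txn2, where 34.4% of all tested genes had every Hyd/HCTZ array above every Ang II array.

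Values were more widely spread with Hyd/HCTZ (array interquartile range 3.26 on average), while medians of the 28 arrays lay within 4.32 to 4.55. The median difference among tested genes was still 0.32, and each difference was also tested with this median as the reference. On that scale 48.6% of genes were called, with higher calls at 23.7% and lower ones at 25%, and 2 of the 7 were called. Prdx1 stayed 1.01 above the median (adjusted p = 0.00414) and Prdx4 1.00 above it (adjusted p = 0.00875). The other 5 were 0.23 (Txn2) to 0.54 (Prdx2) above it, and Txn1 at 0.51 (adjusted p = 0.0578) came nearest to the threshold. Of the calls in this comparison 77.4% were higher as deposited, 48.6% relative to the median, 49.6% with quantile-normalized values and 84.4% once arrays were set to 1 median. After quantile normalization, which called 40.6% of genes, the same 2 were called, Prdx1 at 0.69 (adjusted p = 0.00669) and Prdx4 at 0.99 (adjusted p = 0.0273), and Txn2 turned to -0.02 (adjusted p = 0.904).

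The Ang II group itself was split between array sets, and the mean of its set 1 arrays was the lower one for all 7 genes. Against Ang II replicates 1 and 2 (set 1) all 7 were called, where 50.8% of genes were, with Prdx1 at 1.82 and Gpx1 at 1.19. Against Ang II replicates 3 and 4 (set 2) 0 of the 7 were called, where 30.2% of genes were. There Prdx4 was at 0.93 (adjusted p = 0.0664), Prdx1 at 0.82 (adjusted p = 0.0595), Txn1 at 0.68 (adjusted p = 0.0694) and Txn2 at 0.52 (adjusted p = 0.0667), all still positive. Prdx2 and Prdx3 were each at 0.31 and Gpx1 at 0.15 (adjusted p = 0.758) in that comparison. The calls of Prdx3 and Gpx1 were also lost when Ang II replicate 1 or 2 was left out, Prdx3 falling to 0.69 and 0.60 and Gpx1 to 0.54 and 0.45. The Gpx1 call was lost as well without Hyd/HCTZ replicate 1, 2, 3 or 6, at 0.65 to 0.66 (adjusted p = 0.0582 to 0.0643). Prdx2 was called without Ang II replicate 3 (1.17, adjusted p = 0.0136) or Hyd/HCTZ replicate 2 (0.96, adjusted p = 0.0399).

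**Figure D2:**
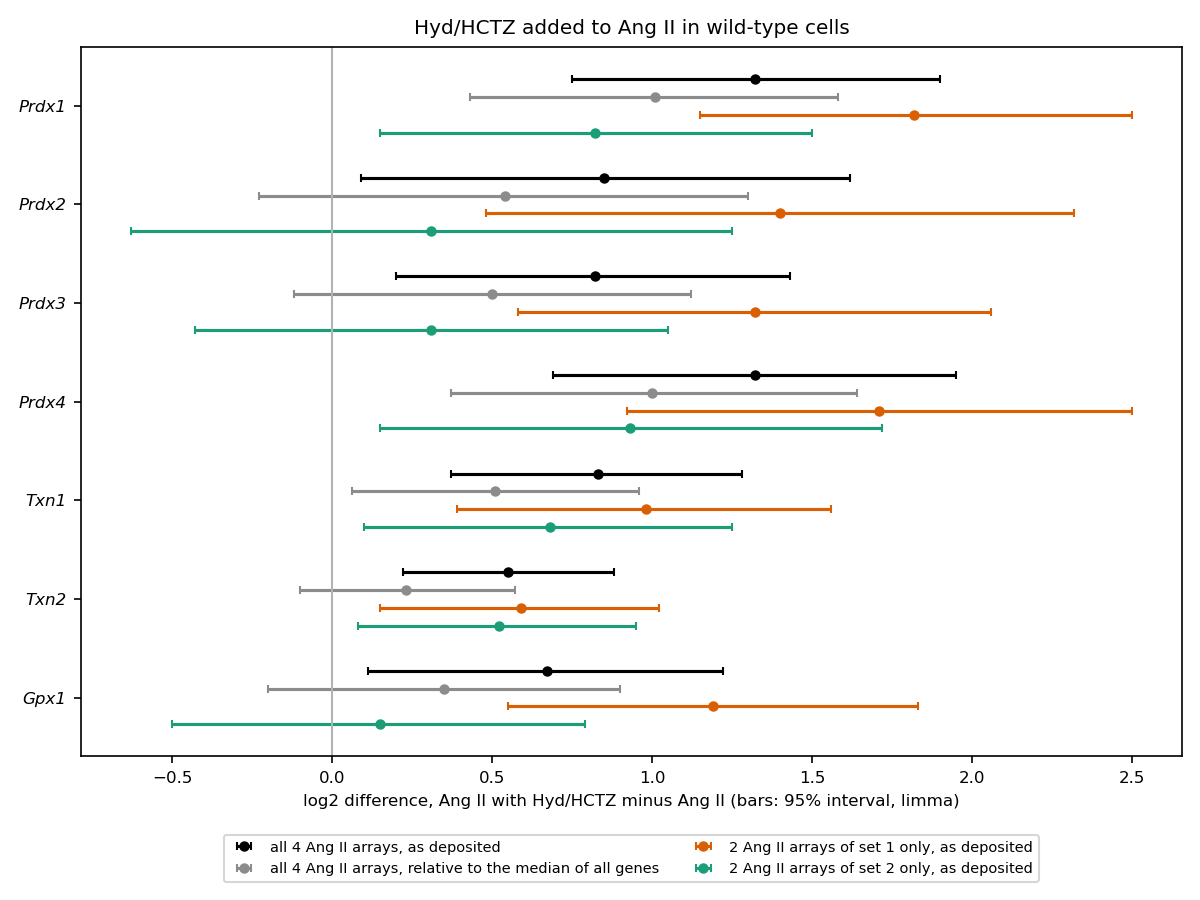
Log2 difference between Ang II with Hyd/HCTZ and Ang II in wild-type cells for each of the 7 genes, with limma's 95% interval, as deposited, relative to the median of all genes, and against the Ang II arrays of set 1 or set 2 alone. For every gene the difference is largest against set 1 and smaller against set 2, with Prdx1 at 1.82 and 0.82 and Gpx1 at 1.19 and 0.15.

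Prdx1 and Prdx2 each had a second probe set with the same single symbol, and both sets of a pair are annotated to the same gene, so they may share signal with near-identical copies and are uncertain to that extent. The second Prdx1 set rose by 1.43 with Hyd/HCTZ (adjusted p = 0.000312 over all probe sets), close to the set used here, and on no array were they more than 0.76 apart. The second Prdx2 set was dimmer, at 6.31 ± 0.83 (SD, n = 4) with Ang II and 7.72 ± 0.19 (SD, n = 6) with Hyd/HCTZ. It rose by 1.40 (adjusted p = 0.00372) and stayed called relative to the median of all genes at 1.07 (adjusted p = 0.0243). The Prdx2 call with Hyd/HCTZ therefore differed between its probe sets, which lay up to 2.27 apart on 1 array.

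Markers of several cell types differed in the same comparison, and in bulk samples fewer cells of a type and less RNA per cell cannot be told apart. Over all tested genes 40.8% were called higher and 11.9% lower (23.7% and 25% relative to the median of all genes). Of 12 shared dendritic cell genes 11 were called higher (7 relative to the median of all genes), their mean level running from 9.16 to 9.42 with Hyd/HCTZ and from 8.24 to 8.63 with Ang II. Of 12 red pulp macrophage genes, the class that clears old red cells, 11 were called higher (8 relative), with levels of 7.45 to 8.91 and 6.53 to 7.52. All 10 tested erythroid genes were called lower on both scales, at 3.92 to 4.48 against 5.02 to 6.23, and of 11 B cell genes 10 were called lower on both scales, at 5.81 to 6.83 against 7.67 to 8.78. Of 10 neutrophil genes 4 were called lower (7 relative), at 5.26 to 6.53 against 6.17 to 7.92. Of 10 T and NK cell genes 1 was called higher and 3 lower (1 and 7 relative). Of 8 plasma cell genes 2 were called higher and 1 lower (1 and 2 relative), and of 5 platelet genes 1 lower (1 relative). These plasma cell and platelet counts do not stand apart from the shares of all genes. Of the defining markers Klf1 (erythroid), Elane (neutrophil), Sdc1 and Tnfrsf17 (plasma cell) and Trat1 (T cell) were not above 5 on any array. The part of these markers in the differences of the 7 genes was not tested.

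Prdx2 was set beside the erythroid list because of its abundance in red cells. The highest Prdx2 array, knockout Ang II replicate 4 (9.38), also had the highest erythroid level of the study (7.32), and the other 3 knockout Ang II arrays were at 4.72 to 5.40. That array was the highest of its group for 6 of the 7 genes, so its high value was not particular to Prdx2. The same array had the highest neutrophil level of the study (8.76), and in its group the highest red pulp macrophage level (7.95) and the lowest B cell level (6.99). Wild-type Ang II replicate 3, the second highest Prdx2 array outside Hyd/HCTZ (8.62), had an erythroid level of 6.23. Wild-type Ang II replicate 4 had nearly that erythroid level (6.07) and Prdx2 at 7.81, within the range of the vehicle arrays. The Hyd/HCTZ arrays went the other way, with the lowest erythroid levels of any group except for 1 overlapping array with 2-HOBA (4.40), and Prdx2 at 7.98 to 8.94. A link between red cells and Prdx2 was not tested, and only the brighter Prdx2 probe set was used.

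**Figure D3:**
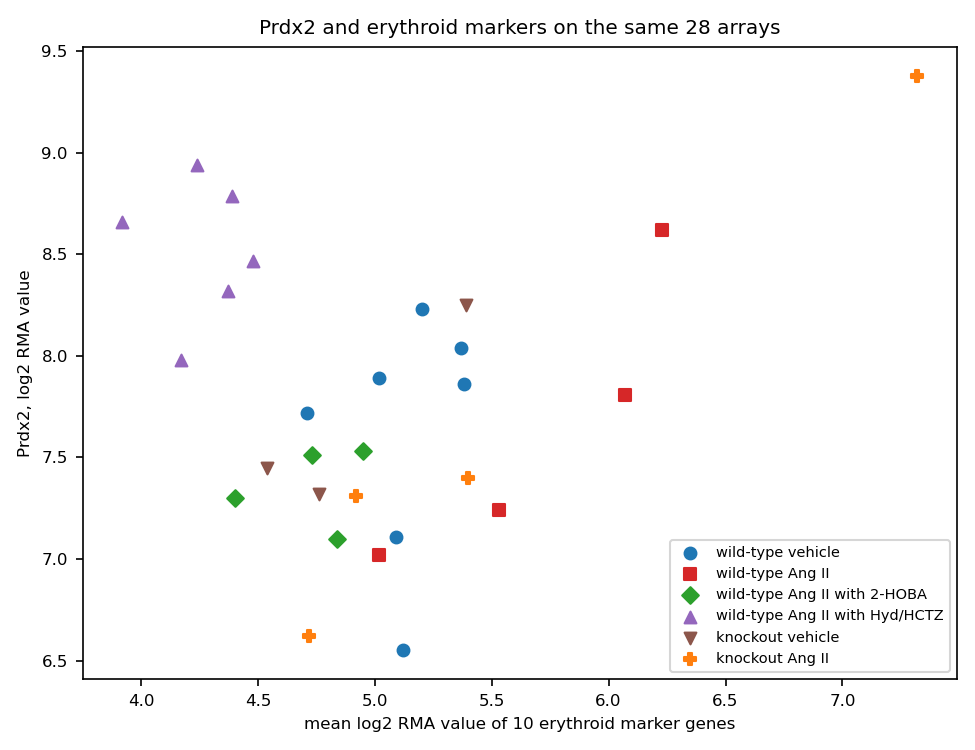
Prdx2 (log2 RMA value of its brighter probe set, vertical axis) against the mean log2 RMA value of 10 erythroid marker genes (horizontal axis), 1 point per array. Each of the 6 groups has a colour and marker. Knockout Ang II replicate 4 lies at the upper right (7.32, 9.38), and the 6 Hyd/HCTZ arrays form a separate group at the left, with erythroid levels of 3.92 to 4.48.

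Ang II alone was compared with vehicle in wild-type cells. None of the 7 passed the test, in a comparison where 0 of all tested genes (0%) were called by limma and 266 genes had an unadjusted p under 0.05. Differences ran from -0.25 for Txn1 (95% interval -0.69 to 0.19) to 0.09 for Prdx4 (-0.52 to 0.71). Gpx1 had a difference of 0.00 (-0.54 to 0.54) and Prdx1 one of -0.08 (-0.64 to 0.48), and changes inside these intervals could not be told from none. When the array labelled wild-type vehicle replicate 2 was left out, all 7 differences were negative, from -0.03 for Prdx3 to -0.40 for Txn1 (adjusted p = 0.559). That array was of set 1, and for all 7 genes set 1 had the lower mean. With the array set as a block Txn1 was at -0.22, Prdx1 at 0.00 and Txn2 at 0.01. Gpx1 was then at 0.07, Prdx3 at 0.08, Prdx2 at 0.11 and Prdx4 at 0.17, none called, so a shared direction was not shown. Among the marker lists all 12 red pulp macrophage genes were lower with Ang II, by a median difference of -0.70, and all 10 erythroid genes were higher, by 0.48, with none called. Their part in these differences was not tested.

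With 2-HOBA added to Ang II none of the 7 passed limma's test either, where 0 of all tested genes (0%) were called and 379 had an unadjusted p under 0.05. Differences from Ang II ran from -0.31 for Prdx2 (95% interval -1.15 to 0.52) to 0.39 for Prdx1 (-0.24 to 1.01). All 4 arrays with 2-HOBA were of set 2, and with the set as a block every one of the 7 differences was negative, Prdx1 turning to -0.15, Prdx3 from 0.03 to -0.48, Prdx2 to -0.77 and Gpx1 to -0.62 (adjusted p = 0.99 for each). Within set 2, against Ang II replicates 3 and 4, Prdx2 was lower by a difference of -0.86 (95% interval -1.34 to -0.37, adjusted p = 0.516) and Gpx1 by one of -0.65 (-1.11 to -0.19, adjusted p = 0.8). Marker lists differed in the same comparison over all arrays, with no gene called. Erythroid genes were lower in 10 of 10 (median difference -0.95), neutrophil genes in 10 of 10 (-0.60) and red pulp macrophage genes in 11 of 12 (-0.17), and B cell genes were higher in 11 of 11 (0.68). Their part in the values of Prdx2 and Gpx1 was not tested.

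The larger comparison inside set 2 was that of 2-HOBA with vehicle, 4 arrays against 4. Over all arrays 0 of the 7 were called, as were 0 of all tested genes (0%, with 602 at an unadjusted p under 0.05), and differences ran from -0.27 for Prdx2 to 0.31 for Prdx1. Inside set 2 all 7 were lower with 2-HOBA, from -0.17 for Prdx1 to -0.61 for Prdx2 (SE 0.18, adjusted p = 0.133), with Gpx1 at -0.53 (SE 0.17, adjusted p = 0.153) and Prdx3 at -0.39 (SE 0.18, adjusted p = 0.275). None of these passed the threshold. The unadjusted 95% intervals included -1.01 to -0.22 for Prdx2, -0.91 to -0.16 for Gpx1, -0.52 to -0.03 for Txn2 and -0.78 to -0.01 for Prdx3. The share of all tested genes with an interval below 0 inside set 2 is not given here, nor is their median difference. The shared direction and these intervals are therefore not read as particular to the 7. Over all arrays of these groups red pulp macrophage genes were lower with 2-HOBA in 12 of 12 (median difference -0.88), neutrophil genes in 10 of 10 (-0.49) and erythroid genes in 10 of 10 (-0.37), and B cell genes were higher in 11 of 11 (0.66), with none called. Their part in the differences was not tested. The comparisons of 2-HOBA with vehicle and with Ang II share the 2-HOBA arrays.

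In NOX2 knockout cells none of the 7 passed limma's test of Ang II against vehicle, where 0 of all tested genes (0%) were called and 296 had an unadjusted p under 0.05. Prdx4 had the largest difference, 0.61 (SE 0.37, 95% interval -0.14 to 1.36), and the other 6 ran from -0.23 for Prdx1 to 0.23 for Prdx3. Knockout Ang II replicate 4 was the highest of its group for 6 of the 7 genes. Without it Prdx2 went from 0.00 to -0.56, Txn1 from 0.06 to -0.19 and Prdx4 from 0.61 to 0.54, none called. The difference between genotypes in the response to Ang II was tested as an interaction and called 0 of the 7 and 0 genes in all (0%, 257 at an unadjusted p under 0.05). It was largest for Prdx4 (0.52, 95% interval -0.45 to 1.48).

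Between genotypes with vehicle, 1 of all tested genes (0.00957%) and 0 of the 7 were called, and 657 genes had an unadjusted p under 0.05. Knockout arrays were lower for Prdx4 by a difference of -0.65 (SE 0.33, adjusted p = 0.815), Prdx3 by -0.53 (SE 0.32) and Txn1 by -0.47 (SE 0.24). All knockout arrays were of set 1, and with the set as a block these became -0.07, 0.05 and -0.23, with Prdx1 at 0.48, Txn2 at 0.40 and Gpx1 at 0.45, none called. Array weights, which called 13.7% of genes in this comparison, gave calls for Prdx4 at -1.01 (adjusted p = 0.00844) and Txn1 at -0.62 (adjusted p = 0.0144). When the array labelled wild-type vehicle replicate 2 was left out, these were -0.85 (adjusted p = 0.132) and -0.62 (adjusted p = 0.116), and 68 genes were called. With Ang II, 5 genes (0.0478%) and 0 of the 7 were called between genotypes, with differences of -0.30 for Prdx3 to 0.16 for Txn2 and 714 genes at an unadjusted p under 0.05. There the set block moved Gpx1 from 0.06 to 0.55 (95% interval 0.03 to 1.06, adjusted p = 0.44).

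**Figure D4:**
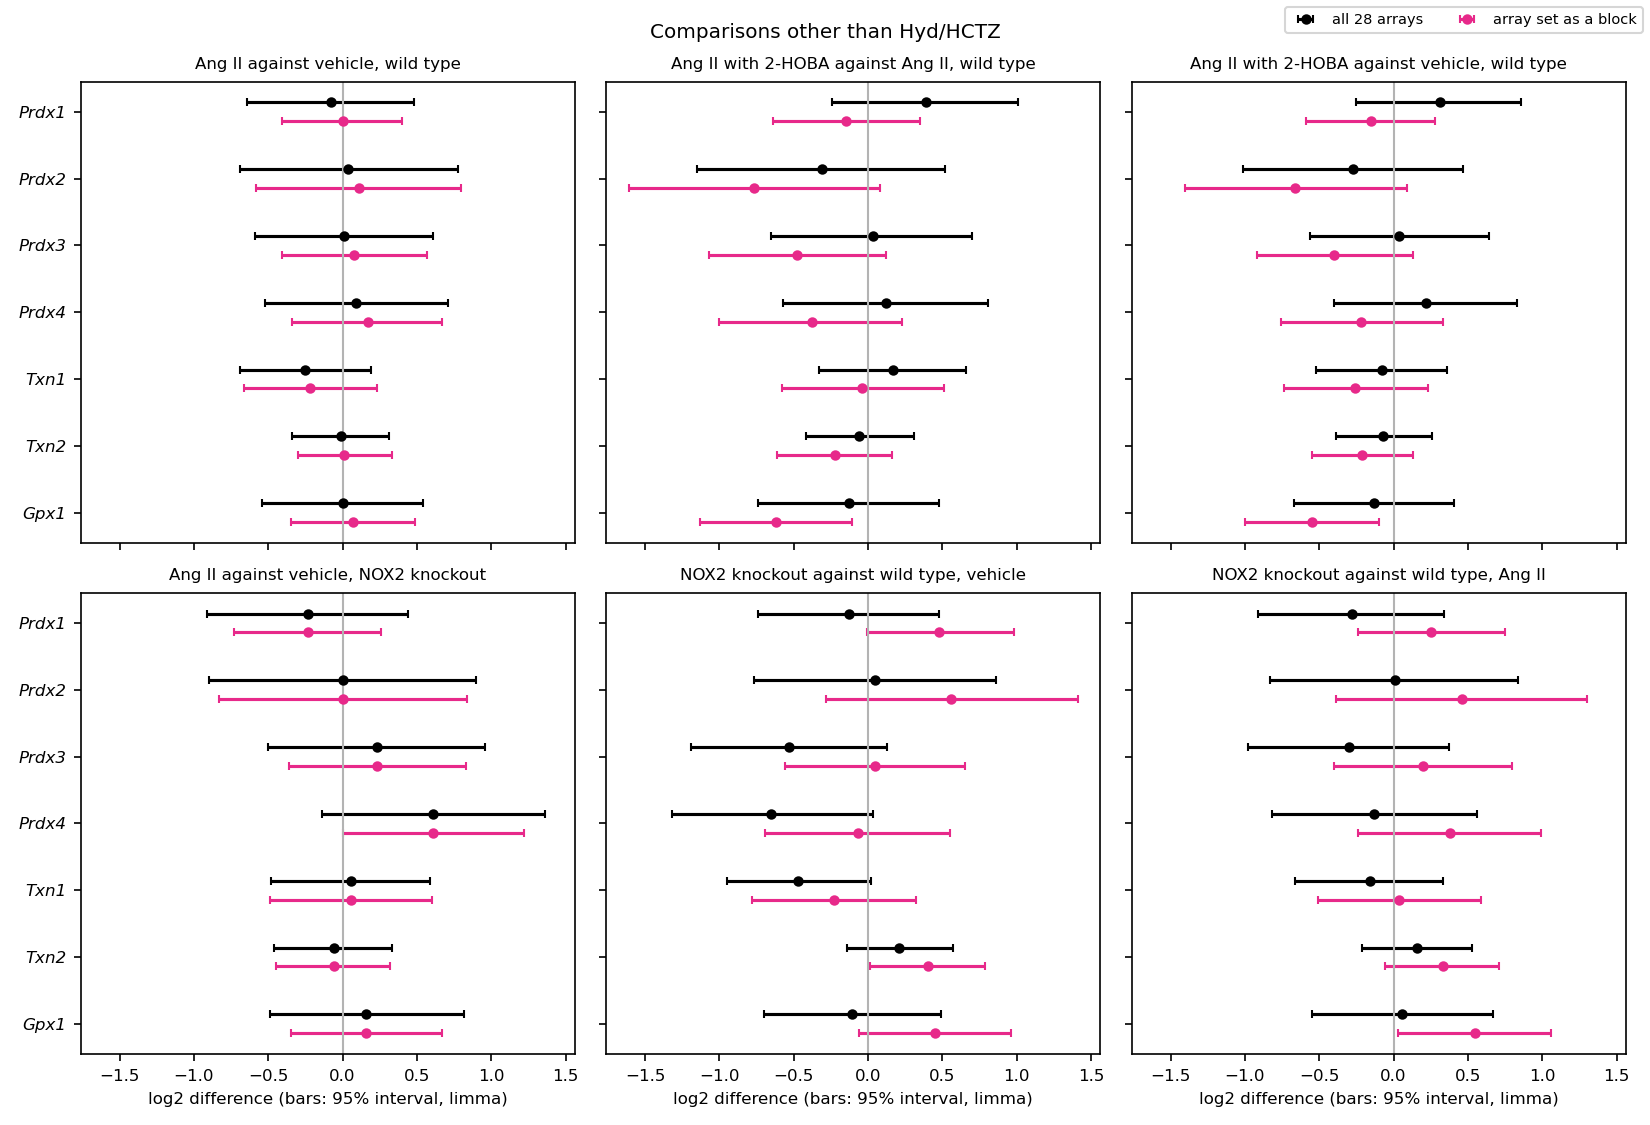
Log2 differences of the 7 genes with limma's 95% intervals in the 6 comparisons other than Hyd/HCTZ, over all 28 arrays (black) and with the array set as a block (pink). With the block the 2-HOBA differences move below 0, Prdx2 to -0.77 against Ang II, and those between genotypes move up, Prdx1 to 0.48 with vehicle.

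The array sets also separated arrays that share a label. Within wild-type vehicle the 4 set 2 arrays exceeded the 3 set 1 arrays by 0.47 for Txn1 to 1.15 for Prdx4, with Prdx1 at 1.12, Prdx3 at 1.00, Gpx1 at 0.93, Prdx2 at 0.80 and Txn2 at 0.48. For 5 of the 7 every set 2 array lay above every set 1 array, as it did for 35.9% of all tested genes, whose median was 0.39. Within wild-type Ang II (2 arrays against 2) the differences were 1.09 for Prdx2, 1.04 for Gpx1, 1.01 for Prdx3, 1.00 for Prdx1, 0.78 for Prdx4, 0.30 for Txn1 and 0.07 for Txn2. There 6 of the 7 did not overlap, against 35% of all genes, whose median was 0.11. When the array labelled wild-type vehicle replicate 2 was left out, the vehicle split was 0.13 for Txn1, 0.29 for Txn2, 0.49 for Prdx2 and 0.77 to 1.17 for the other 4. That array was the lowest of its group for 6 of the 7, Prdx3 being the exception.

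The partners of these enzymes were read from 7 further lists, of 64 genes of which 54 were tested. With Hyd/HCTZ 34 were called higher and 5 lower (23 and 7 relative to the median of all genes), with a median difference of 0.81 (0.50 relative). Over all tested genes 40.8% were called higher and 11.9% lower (23.7% and 25% relative), so lists with 3 of 6 or 4 of 8 called higher lie near the share of all genes. Of these partners 0 of the 54 were called in any other comparison. For them too Hyd/HCTZ cannot be told apart from array set 3, and no comparison with the Ang II arrays of set 2 alone is given here. Among 13 genes that recycle thioredoxin and peroxiredoxin or counteract them, 8 were called higher and 3 lower (6 and 3 relative). Glrx, a glutaredoxin that reduces glutathione-bound proteins, rose from 5.41 ± 0.30 (SD, n = 4) to 7.67 ± 0.12 (SD, n = 6), a difference of 2.27 (adjusted p = 2.09e-09). Glrx2, a mitochondrial glutaredoxin, rose by 1.14, Txndc17, a thioredoxin-like protein, by 1.31 and Sesn2, a stress-induced sestrin, by 1.02. All 4 were also called relative to the median.

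The 3 called lower were Sesn1, Sesn3 and Txnip, and these and the next pair were picked for their roles after their values were seen. Sesn1 had a difference of -0.85 (adjusted p = 0.00272), Sesn3 one of -0.78 (adjusted p = 0.0137) and Txnip, which binds and inhibits thioredoxin, one of -0.64 (adjusted p = 0.0346). They were called lower relative to the median as well, Txnip at -0.95. Txnrd1, the reductase of Txn1, rose by 0.73 (adjusted p = 0.00317) but was not called relative to the median (0.41, adjusted p = 0.0865). Srxn1, which repairs over-oxidised peroxiredoxins, rose by 0.81 and was called on both scales, with the Ang II mean (4.58) below 5.

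Of 5 other peroxide and superoxide enzymes 3 were called higher and 1 lower, on both scales. Catalase (Cat), which removes peroxide in peroxisomes, rose from 7.33 ± 0.37 (SD, n = 4) to 8.69 ± 0.24 (SD, n = 6), by 1.36 (adjusted p = 3.59e-05). Gpx4, which reduces lipid peroxides, rose by 0.87, and the mitochondrial superoxide dismutase Sod2 rose by 1.98 from a mean of 4.41. Gpx3, the secreted glutathione peroxidase, fell by 1.47 to a mean of 3.66, below the level at which genes were tested.

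The glutathione list had 6 of 9 called higher (4 relative) and 0 lower. Gsto1 rose by 1.94, Gstp1 by 1.31, Slc3a2, a subunit of the cystine importer, by 1.24 and Gclc, the catalytic subunit of the rate-limiting enzyme of glutathione synthesis, by 1.23. All 6 tested genes of the NADPH supply list were called higher (4 relative). The NADP-dependent isocitrate dehydrogenases Idh1 and Idh2 were at 1.64 and 1.50. Taldo1 (2.24) and Tkt (1.43) were listed as enzymes of the pentose phosphate pathway and do not make NADPH themselves. Of 7 genes of Nrf2 control 4 were called higher (2 relative). Nfe2l2, which encodes Nrf2, rose from 6.93 ± 0.35 (SD, n = 4) to 9.02 ± 0.23 (SD, n = 6), a difference of 2.10 (adjusted p = 8.71e-09). Sqstm1 rose by 1.09, Hmox1, the heme oxygenase that Nrf2 induces, by 0.84 and Bach1, a repressor at the same elements, by 0.76, and of these Sqstm1 was called relative to the median.

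Of 6 genes for selenoprotein synthesis, on which Gpx1 depends, 3 were called higher, Eefsec by 0.80, Trnau1ap by 0.74 and Sephs1 by 0.57. Sephs1 was dim, with means of 4.46 with Ang II, below 5, and 5.03 with Hyd/HCTZ. Relative to the median 1 was called higher, Eefsec, and 1 lower, Secisbp2 at -0.40. In the list for oxidative folding in the endoplasmic reticulum, the process Prdx4 takes part in, 4 of 8 were called higher and 1 lower (3 and 2 relative). Ero1a, the oxidase that produces peroxide during folding, rose by 1.13, P4hb by 1.02 and Pdia6 by 0.98, both of them disulfide isomerases. Pdia4, another isomerase, fell by 1.02 (adjusted p = 0.00765).

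**Figure D5:**
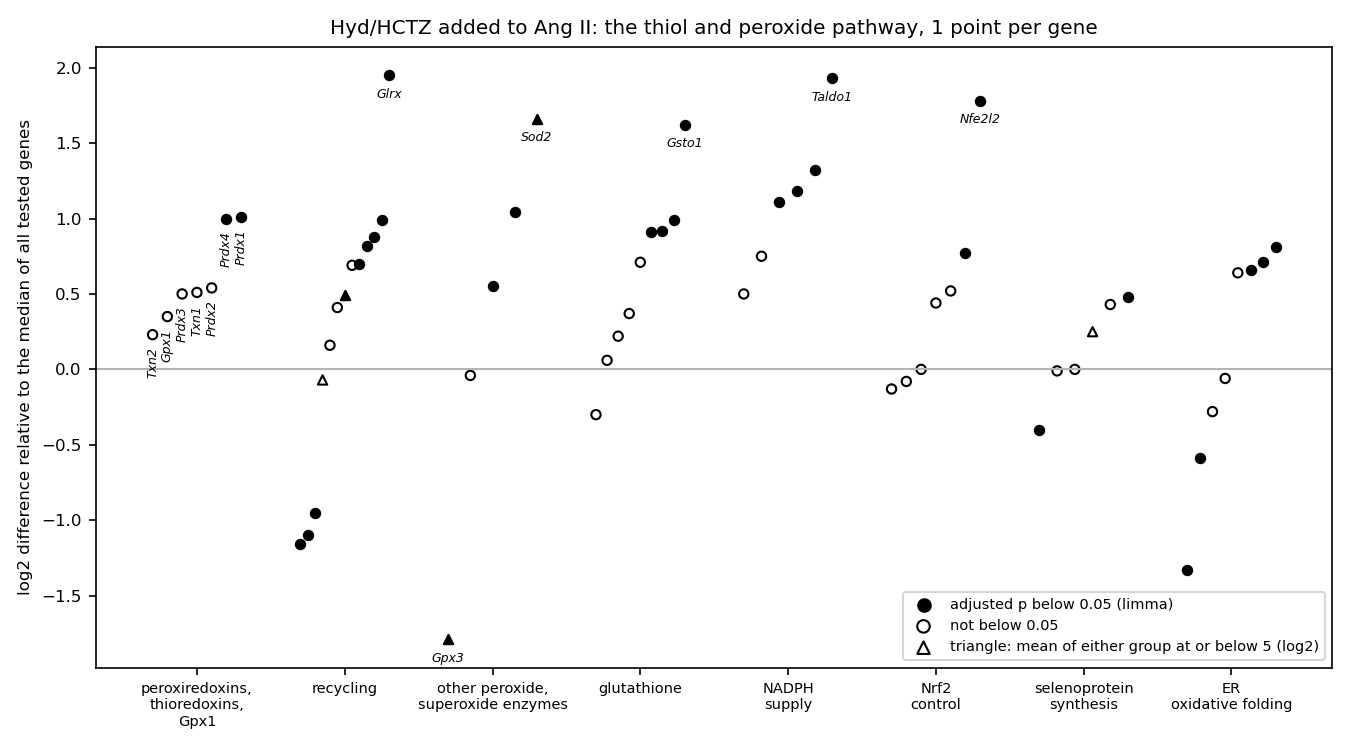
Log2 difference between Ang II with Hyd/HCTZ and Ang II, relative to the median difference of all tested genes, for the 7 genes and the 54 tested genes of 7 pathway lists, 1 point per gene (filled, adjusted p below 0.05 by limma; triangle, a group mean at or below 5). Prdx1 and Prdx4 lie about 1 above the median, Glrx, Taldo1 and Nfe2l2 at 1.95, 1.93 and 1.78, and Gpx3 at -1.79.

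The genes whose profiles came nearest to each member were taken as those with the smallest root mean square difference of log2 values, centred per gene, over the 28 arrays. For Prdx1, whose own SD over arrays was 0.71, these were Rtraf (0.17) and Ube2n (0.19). For Txn1 (SD 0.48) they were Serinc1 (0.16) and Gabarap (0.21), and for Txn2 (SD 0.31) Rac1 (0.16) and Oxsr1 (0.17). Prdx4 (SD 0.80) was nearest to Ipo7 (0.27) and Chka (0.30), Gpx1 (SD 0.50) to Rab8b (0.23) and Tmed2 (0.24), and Prdx3 (SD 0.63) to H2az1 and Dazap2 (both 0.31). Prdx2 (SD 0.70) had the most distant neighbours, Top2a (0.35), a topoisomerase of dividing cells, and Tfrc (0.36), the transferrin receptor. All of these share the arrays, their sets and their scaling.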

How the data were processed

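Total RNA of splenic dendritic cells was extracted with Trizol and hybridised as biotin-labelled cRNA, per the labels' protocols. The authors deposited 1 log2 value per probe set and array, from RMA in Partek 6.6 per the submitters' processing notes. The array annotation and background settings are not given in the sources used here, no detection calls were used, and precision is limited by how many arrays there are. Of 35556 probe sets 21789 carried 1 symbol in the platform annotation, 1621 several and 12146 none. Genes that passed 5 on 3 or more arrays were tested with limma 3.58.1 in R 4.3.3, as 6 group means in 1 fit of 28 arrays with eBayes, two-sided, Benjamini-Hochberg adjusted over all 10452 genes and called below 0.05. Adjusted p-values come from this fit or, where an alternative is named, from a limma fit of that alternative, and ± gives the SD. The fit with the array set as a block left out the Hyd/HCTZ arrays.

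The members and lists were chosen with earlier results of these data known. Every member is named, with up to 4 called genes of each pathway list by smallest p and the 2 genes most like each member. Array sets come from the first principal component of 998 unnamed control probe sets (30.2% of their variance), not from a scan date. No array pair correlated above 0.990, and the script was tested on simulated data. Alternatives were filters, quantile normalization, a common median, the median difference as reference, array weights, only the arrays compared, trended and robust eBayes, all probe sets, the replicate number or the array set as a block, and leaving out each array. The Hyd/HCTZ comparison against either array set of Ang II was added after seeing the data. Some knockout titles wrote Ang I where their descriptions wrote Ang II, which was followed.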

Additional observations from a re-analysis of the deposited data

Results flagged for a closer look

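Among 35 sets of values (7 genes in the 5 groups of 4 to 7 arrays), 2 had an array that stood far from the rest by Dixon's criterion, where chance gives about 1 in 20. Txn1 on the array labelled wild-type vehicle replicate 2 was at 9.28, with the nearest of the other 6 arrays at 10.26. Txn1 on knockout Ang II replicate 4 was at 10.54, with the nearest of the other 3 arrays at 9.61.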

How the results depend on the processing

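Outside Hyd/HCTZ none of the 7 genes was called under any alternative run, except with array weights, which called Prdx4 and Txn1 between genotypes with vehicle and 2 of the 7 in the F test over the 5 groups without Hyd/HCTZ. With Hyd/HCTZ the 6 calls became 2 with quantile normalization or relative to the median difference, 0 against the Ang II arrays of set 2 and 4 to 7 with 1 array left out. Prdx2, not among the 6, was called with a common median (0.96, adjusted p = 0.0352) or array weights (0.75, adjusted p = 0.035). With only the arrays compared it was called at 0.85 (adjusted p = 0.0128). Only Txn2 was reversed, at -0.02 with quantile normalization (adjusted p = 0.904). The 5 members called among 6 groups became 3 with a filter above 7 and 2 with quantile normalization. Below, counts are genes called. With Hyd/HCTZ (5503) there were 8761 with no filter, 2552 with a filter above 7 and 3156 against Ang II of set 2. Among 6 groups (5578) there were 9165 with no filter and 2543 above 7, and among 5 groups (22) there were 13 above 7, 87 with quantile normalization and 1788 with array weights. For 2-HOBA (0) there were 5 within set 2 against Ang II, 7 within set 2 and 108 with array weights against vehicle, and 0 to 1 in both with 1 array left out. For Ang II in the knockout (0) there were 2 with quantile normalization and 1 with array weights. Between genotypes with vehicle (1) there were 0 above 7, 2 with quantile normalization, 1437 with array weights, 12 with the array set as a block, 6 within set 1 and 1 to 68 with 1 array left out, the 68 without wild-type vehicle replicate 2. Between genotypes with Ang II (5) there were 16 with quantile normalization, 3 with array weights, 14 with only the arrays compared, 15 with the array set as a block, 16 within set 1 and 1 to 3 with 1 array left out. The cause of these shifts was not tested, beyond the number of genes or arrays left by a filter or a subset.

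With the replicate number as a block, 2 genes were called between genotypes with vehicle and 11 with Ang II, and with Hyd/HCTZ the calls of Prdx3 (0.70, adjusted p = 0.0767) and Gpx1 (0.56, adjusted p = 0.076) were lost. The numbers do not pair the arrays, since over 57 pairs of arrays with 1 number the correlation of deviations ran from -0.35 to 0.37 (median -0.03), with 10 pairs over 0.1.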
